A study of Mus musculus with 8 samples.

Results

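The libraries described here are the 8 RNA sequencing libraries of a study of mouse embryonic fibroblasts, split by the number in their titles: numbers 1 and 2 of each genotype (4 libraries) against numbers 3 and 4 of each genotype (4 libraries), so that all 8 of 8 libraries are used. Embryonic fibroblasts are connective tissue cells grown from embryos on plastic in medium with serum. The 4 control libraries (genotype WT) and the 4 PUS10KO libraries, from cells in which the pseudouridine synthase gene Pus10 was targeted, have the same growth and library protocols, and no other treatment, time or age is stated. The labels do not say what a number stands for, whether the libraries came from separate cultures, embryos or days, or how the PUS10KO cells were made; the design text speaks of 4 sets of samples without saying what a set shares. The split was chosen from a principal component of these same counts, so the difference between the sets is given as a description with no test. The test that is reported asks whether that difference depends on genotype; the rule for the split did not use that contrast, although it was drawn from the same libraries and counts.

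Cultured fibroblasts carry several programmes that move with serum, cell density, spreading and the stage of the cell cycle. Growth factors act through the ERK kinase cascade on immediate early genes such as the AP-1 factors, and on their own feedback inhibitors of the Dusp and Sprouty families. Tension on the cytoskeleton acts through the co-activators YAP and TAZ with TEAD factors, and through serum response factor, on secreted matricellular proteins and on contractile proteins. Sterol synthesis is set by the SREBP2 transcription factor, which responds to the sterol content of the cell. None of these inputs was recorded in the labels, and their part in the differences below was not tested.

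Total counts ran from 17561114 to 24563499 per library over the 12211 genes of the table; 11909 genes passed the filter on low counts. Values below are CPM, TMM-scaled counts on the CPM scale, in the order of numbers 1, 2, 3 and 4. Pus10, the targeted gene, had 40.9, 51.5, 40.1 and 51.8 CPM in the control libraries and 14.3, 15.2, 14.2 and 11.5 CPM in the PUS10KO libraries. It was lower in every PUS10KO library and did not part the number sets (log2 fold change -0.10, SE 0.13). Of 13 fibroblast markers all 13 were measured in the table and none was counted as different between the sets by the rule given below. Nearest was Col3a1, with a log2 fold change of 0.98 (SE 0.26, and 0.49 without number 4). Pdgfra had 1.05 in control and 0.13 in PUS10KO (adjusted p of the difference = 0.0288 in edgeR with the number as a block, 0.851 without). Eif2s3y, a Y-linked translation factor gene, had 0 counts in all 4 control libraries and 65.9, 69.9, 70.6 and 73.8 CPM in the PUS10KO libraries, so sex chromosome content and genotype cannot be told apart in any result that compares the genotypes.

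The number sets were parted by the second principal component. It held 26.1% of the variance of log2 CPM, after 56.1% for the first component, which parted the genotypes. On the second component control libraries 1 and 2 scored 31.1 and 21.3, PUS10KO libraries 1 and 2 scored 44.9 and 29.0, control libraries 3 and 4 scored -31.3 and -41.8, and PUS10KO libraries 3 and 4 scored -22.4 and -30.8. The libraries nearest the boundary were thus control 2 on one side and PUS10KO 3 on the other. The third component (9.53%) put number 1 below number 2 in both genotypes, at -33.6 against 29.4 in control and -13.3 against 26.1 in PUS10KO. Numbers 1 and 2 were therefore less alike than numbers 3 and 4. Between numbers 3 and 4, 32 genes (0.269%) differed at least 2-fold in the same direction in both genotypes, between numbers 1 and 2 there were 382 (3.21%), and between a number of one set and a number of the other there were 491 (4.12%, numbers 2 and 3) to 966 (8.11%, numbers 1 and 4).

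**Figure D1:**
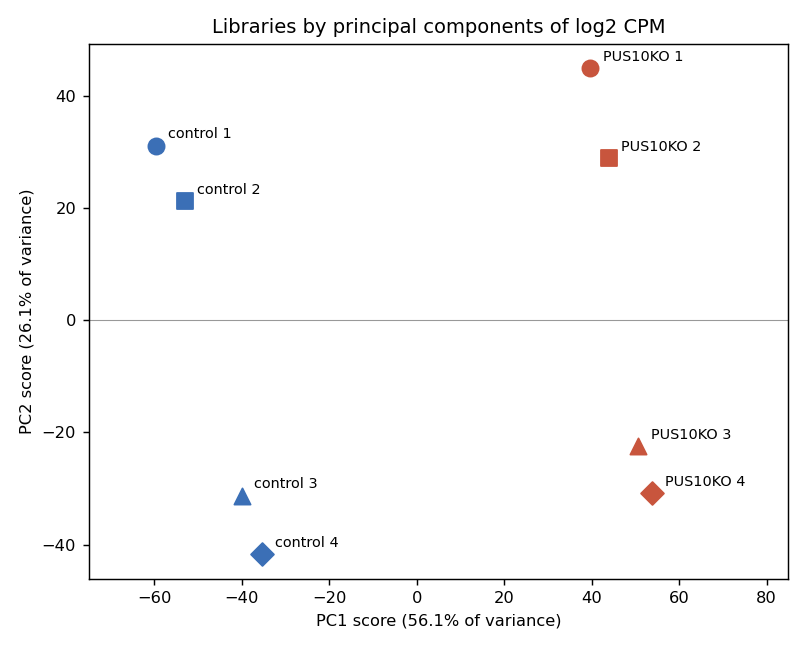
Scores of the 8 libraries on the first and second principal components of log2 CPM, with the share of variance on each axis; colour is genotype and marker shape is the library number. The control and PUS10KO libraries numbered 1 and 2 lie above 0 on the second component (21.3 to 44.9), and those numbered 3 and 4 lie below it (-22.4 to -41.8).

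A gene is counted here as higher or lower in numbers 3 and 4 when its fitted log2 fold change, with genotype in the model, is at least 1 in size and when, within each genotype separately, both libraries of one set lie above both libraries of the other. Values that follow a gene with no unit are such log2 fold changes, with the standard error (SE) of the fit. By this rule 580 genes were higher in numbers 3 and 4 (4.87% of the genes tested) and 354 were lower (2.97%), together 934 (7.84%). The median log2 fold change of all genes was 0.01, a value that TMM scaling brings near 0 by its design. Without the fold requirement 5325 genes parted the sets in the same direction in both genotypes, and 283 parted them in opposite directions. Within the control libraries alone 698 genes were at least 2-fold higher (5.86%) and 543 lower (4.56%) without overlap, and within the PUS10KO libraries 814 were higher (6.84%) and 434 lower (3.64%). Genes higher in both were 400, or 57.3% of those of control and 49.1% of those of PUS10KO, and genes lower in both were 243, or 44.8% and 56.0%. Across the 11909 genes the differences within control and within PUS10KO, which use different libraries, had a Pearson r of 0.722 and the same sign for 81.6% of genes; genes are not independent replicates, and the split was chosen on both genotypes. Leaving out number 2 in both genotypes brought the lower genes from 354 to 606, and leaving out number 1 brought them to 298. Leaving out control 2 brought the higher genes of control to 1086, and leaving out PUS10KO 2 brought the lower genes of PUS10KO to 656, whereas leaving out control 1 brought the lower genes of control to 423 and leaving out PUS10KO 1 brought those of PUS10KO to 336. The higher genes of control were also 1011 without control 1, 927 without control 3 and 631 without control 4. With fewer libraries the no-overlap rule is easier to meet, so such counts are not on the same footing as those from all 8. In bulk RNA, fewer cells of a type and less RNA per cell cannot be told apart.

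**Figure D2:**
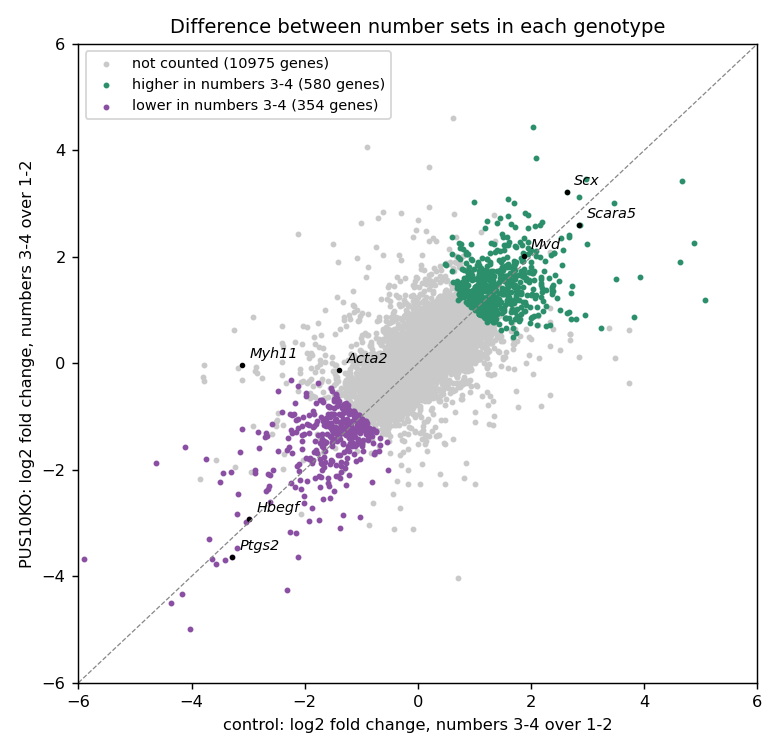
Log2 fold change of numbers 3 and 4 over numbers 1 and 2 in the control libraries (horizontal) against that in the PUS10KO libraries (vertical), 1 point a gene, with the 580 genes counted as higher and the 354 counted as lower in colour and the line of equal change dashed; 1 gene lies outside the plotted range. Ptgs2, Hbegf, Scx, Scara5 and Mvd lie near the line, whereas Acta2 and Myh11 have a lower value in control than in PUS10KO.

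The genes with the largest differences in the downward direction, among counted genes of at least moderate abundance (mean log2 CPM of 2 or more), belonged to no single list. Serpinb2, which encodes the plasminogen activator inhibitor PAI-2 (ENSMUSG00000062345.10, plus strand of chromosome 1 from 107511423 to 107535478 in GRCm38), had 57.3, 19.9, 2.52 and 2.2 CPM in control and 71.1, 26.3, 2.07 and 0.92 CPM in PUS10KO. All 4 libraries numbered 1 and 2 stood above all 4 numbered 3 and 4, and within the former number 1 stood above number 2 in both genotypes. The log2 fold change was -4.49 (SE 0.52), and -3.57 without number 1.

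The 3 epidermal growth factor receptor ligands that were tested as list members were all lower in numbers 3 and 4. Ereg, epiregulin, had 116, 82.6, 9.12 and 7.57 CPM in control and 157, 96.9, 11.3 and 7.31 CPM in PUS10KO, and Hbegf had 222, 192, 27.6 and 24.8 CPM in control and 133, 77.5, 14.9 and 12.8 CPM in PUS10KO. Their log2 fold changes were -3.67 (SE 0.22) and -2.95 (SE 0.17), and for both the sets were far apart beside the spread within them. Areg, amphiregulin, was scarce (at most 2.74 CPM) and had -2.38 (SE 0.43). Further ligands of the receptor outside the lists, named after their values were seen, were not counted as different: Tgfa had -0.42 (SE 0.33), Btc had -0.40 (SE 0.32) and Egf had 0.44 (SE 0.32). Ptgs2, the inducible cyclooxygenase COX-2 that makes prostaglandins, had 291, 255, 31.8 and 24.3 CPM in control and 442, 319, 39.6 and 21.5 CPM in PUS10KO (log2 fold change -3.46, SE 0.23). Among the other genes with the largest differences were Sema7a, a membrane-bound semaphorin (-3.51), Tll1, a protease that processes procollagen (-3.29), Rgs16, an inhibitor of G protein signalling (-2.82), and Edn1, the vasoconstrictor endothelin-1 (-2.71), all as log2 fold changes. Kcnk10, a potassium channel (-3.77), Fgd3 (-3.54) and Nup62cl (-3.36) also stood among the 15 lowest. Kcnk10 had at most 0.487 CPM in the control libraries, so its difference rests on PUS10KO (-3.68 there). Nup62cl had -4.63 in control and -1.87 in PUS10KO (adjusted p of the difference = 0.00701 in edgeR with the number as a block, 0.733 without). Without number 1 the log2 fold changes of Sema7a, Edn1 and Kcnk10 were -2.81, -1.82 and -2.57, and that of Edn1 was -3.30 without number 2.

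Serpinb2 is shown with its promoter, since it had the lowest fold change of the named genes and its promoter holds an AP-1 match. The 250 bases before its start (chr1:107511173-107511422, plus strand, GRCm38.p6, RefSeq) read as follows, with the AP-1 letters TGANTCA in capitals.
Serpinb2: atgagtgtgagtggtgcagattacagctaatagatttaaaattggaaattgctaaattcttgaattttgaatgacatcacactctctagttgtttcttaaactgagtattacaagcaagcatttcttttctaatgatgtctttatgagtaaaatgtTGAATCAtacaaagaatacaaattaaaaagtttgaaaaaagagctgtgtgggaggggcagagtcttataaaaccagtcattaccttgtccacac
In windows of 300 bases around the RefSeq start (250 before and 50 after, first start listed, either strand), TGANTCA stood in 10.0% of the 270 matched genes that were lower in numbers 3 and 4, 4.17% of the 432 matched genes that were higher, 4.65% of the 9579 matched genes tested and 7.93% of all 27025 promoters of the table. A match is a description of the letters and not a binding site.

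**Figure D3:**
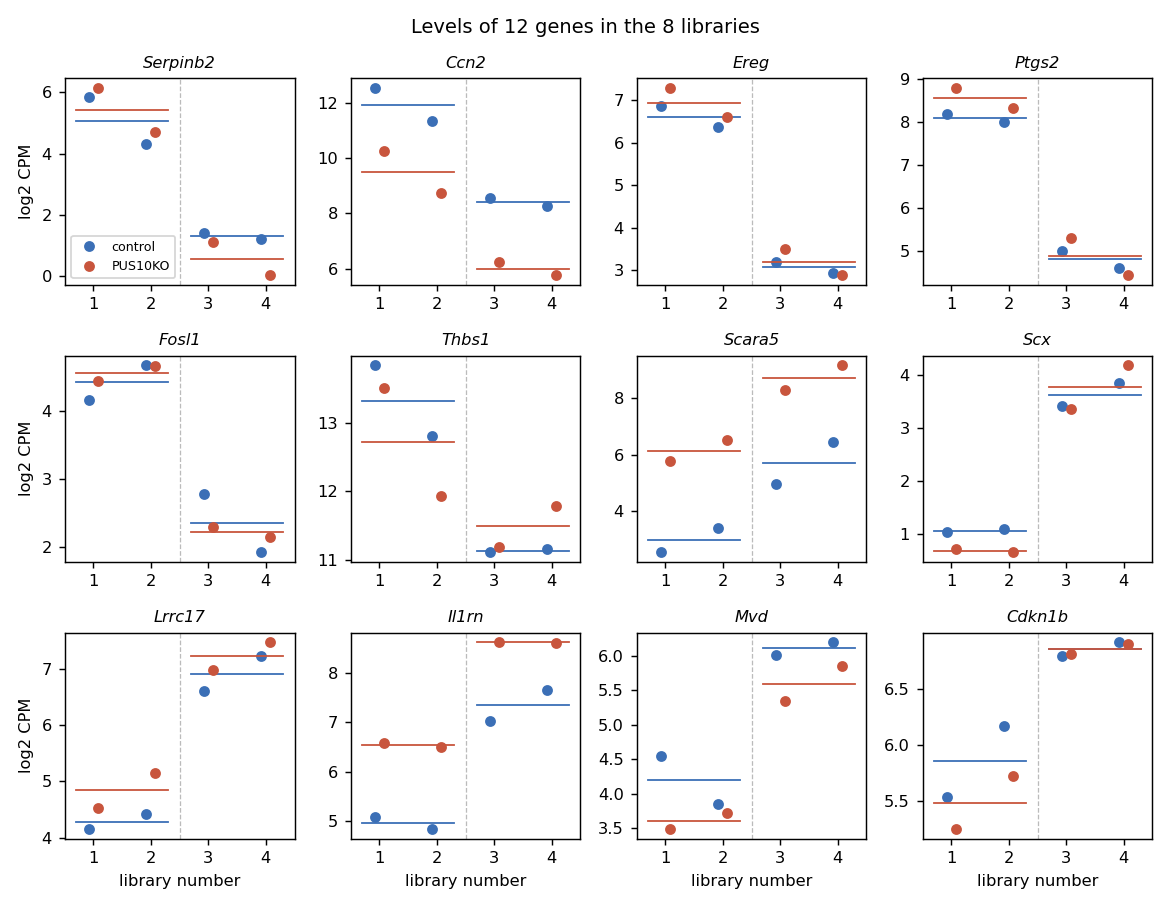
Log2 CPM (vertical) of 12 genes by library number (horizontal), control in blue and PUS10KO in red, with lines at the mean of each pair of libraries and a dashed line between the sets. Serpinb2, Ccn2, Ereg, Ptgs2, Fosl1 and Thbs1 are higher in numbers 1 and 2 in both genotypes, and Scara5, Scx, Lrrc17, Il1rn, Mvd and Cdkn1b are higher in numbers 3 and 4.

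The immediate early and serum response list had the highest number of counted genes of all lists examined. Of its 28 tested members 14 were lower in numbers 3 and 4, against 2.97% of all genes, and none was higher; the median log2 fold change was -1.07 (-1.28 in control and -0.91 in PUS10KO). Among the transcription factors, Fosl1, which encodes the AP-1 subunit FRA-1, had 17.9, 25.6, 6.75 and 3.69 CPM in control and 21.8, 25.3, 4.81 and 4.33 CPM in PUS10KO (log2 fold change -2.21, SE 0.21). The orphan nuclear receptor gene Nr4a1 had 70.4, 32.3, 5.62 and 8.33 CPM in control and 54.5, 29.1, 5.02 and 16.1 CPM in PUS10KO (-2.43, SE 0.45, and -1.84 without number 1 and -3.12 without number 4). Jun and Myc had log2 fold changes of -1.33 (-0.99 without number 2) and -1.40. Egr1 and Fos, themselves the best known of the immediate early genes, had -0.63 (SE 0.37, and -1.29 without number 3) and -0.96 (SE 0.19) and were not counted.

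The Dusp and Sprouty families, known as feedback inhibitors of MAP kinase signalling, had 6 members in that list. They were grouped after their values were seen, and all 6 were tested and counted as lower. The phosphatase gene Dusp4 had 29.8, 48.0, 9.89 and 6.61 CPM in control and 21.2, 21.9, 5.19 and 3.84 CPM in PUS10KO (-2.24, SE 0.20), and Dusp1, Dusp5 and Dusp6 had log2 fold changes of -2.03 (-1.42 without number 1), -1.88 and -1.71. Spry2 and Spry4, Sprouty proteins that restrain receptor tyrosine kinases, had -1.87 and -2.24. Without number 3 these were -2.49 and -3.75, and Spry4, at most 5.96 CPM, had -1.53 without number 4.

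The list of YAP and TEAD targets had 8 of 21 tested members lower in numbers 3 and 4, against 2.97% of all genes, and none higher. Its median log2 fold change was -0.66 (-0.88 in control, -0.52 in PUS10KO). Ccn2, the matricellular protein also called connective tissue growth factor (ENSMUSG00000019997.11, plus strand of chromosome 10 from 24595442 to 24598683 in GRCm38), had 5949, 2569, 374 and 309.8 CPM in control and 1221, 427, 74.7 and 54.1 CPM in PUS10KO. The sets did not overlap in either genotype, and PUS10KO stood lower than control at every number; the log2 fold change was -3.66 (SE 0.40), and -2.81 without number 1. Its relative Ccn1 had 1335, 533, 153 and 102 CPM in control and 975, 353, 182 and 139 CPM in PUS10KO (-2.46, SE 0.42, and -1.61 without number 1). Ankrd1, an ankyrin repeat protein induced by stretch, had 72.9, 55.3, 7.57 and 7.23 CPM in control and at most 0.239 CPM in PUS10KO, so that its fold change of -2.97 (SE 0.24) comes from the control libraries. The co-activator genes themselves differed little: Yap1 had -0.34 and Wwtr1, which encodes TAZ, had -0.03.

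Promoters of Ankrd1 and Ccn1 are printed because these target genes hold the TEAD letters CATTCC or their reverse complement GGAATG, in capitals, in the 250 bases before their start. Ankrd1 lies on the minus strand (window chr19:36119845-36120094) and Ccn1 likewise (window chr3:145649986-145650235), both GRCm38.p6 from RefSeq.
Ankrd1: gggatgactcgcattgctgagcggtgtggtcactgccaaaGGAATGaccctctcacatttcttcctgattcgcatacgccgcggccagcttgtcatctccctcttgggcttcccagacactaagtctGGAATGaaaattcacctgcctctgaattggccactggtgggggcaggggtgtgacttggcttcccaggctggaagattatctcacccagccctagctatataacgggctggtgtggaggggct
Ccn1: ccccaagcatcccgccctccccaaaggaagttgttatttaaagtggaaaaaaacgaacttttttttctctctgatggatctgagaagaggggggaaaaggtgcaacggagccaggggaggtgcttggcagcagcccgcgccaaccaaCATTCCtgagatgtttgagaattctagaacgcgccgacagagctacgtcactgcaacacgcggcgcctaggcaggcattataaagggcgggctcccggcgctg
CATTCC or its reverse complement stood in the 300-base window of 11 of the 15 matched genes of the list (73.33%), in 15.93% of the 270 lower genes, in 10.19% of the 432 higher genes and in 11.6% of the 9579 genes tested. The list was written from known targets, so its share describes the list and not these libraries.

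The counted genes of both growth factor lists included ligands. Over all genes 2.97% were lower and 4.87% higher. In the TGF-beta and BMP list 8 of 34 tested genes were lower and 1 was higher. Inhba, the activin A subunit, had 439, 179, 55.8 and 43.3 CPM in control and 275, 158, 48.2 and 36.1 CPM in PUS10KO (-2.50, SE 0.31, and -1.87 without number 1). The ligand gene Bmp6 had -1.95, the feedback inhibitor gene Smad7 -1.39, the activin antagonist gene Fst -1.5 and the inhibitory helix-loop-helix factor gene Id4 -1.85, all log2 fold changes. Without number 1 those of Bmp6, Fst and Id4 were -1.13, -1.0 and -1.15. The receptor genes Tgfbr1, Tgfbr2, Bmpr1a and Bmpr2 had -0.37, 0.25, 0.03 and -0.35 and none was counted. In the list of FGF, PDGF, VEGF and EGF signalling 8 of 25 genes were lower and 3 higher. Beside the 3 epidermal growth factor receptor ligands, Fgf2 (-1.65), Fgf10 (-1.99), Pdgfb (-1.83), Vegfa (-1.16) and Vegfc (-1.61) were lower; without number 1 Fgf10 had -1.23 and Vegfc -0.72. The 3 that were higher were also ligands. Angpt1, the ligand of the endothelial receptor TIE2, had 2.97, 4.82, 14.6 and 22.2 CPM in control and 5.56, 13.2, 31.9 and 40.1 CPM in PUS10KO (2.07, SE 0.30, and 2.66 without number 2), and Hgf, hepatocyte growth factor, and Vegfd had 1.5 and 1.15 (Vegfd 0.97 without number 1). Receptors were counted too, in lists of cell type markers: the VEGF receptor gene Flt1 had -1.61 (-0.83 without number 1) and Tek, which encodes TIE2, had 1.90.

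Cytokine genes and adhesion genes gave further examples. Csf1, the growth factor of macrophages, had 1064, 715, 287 and 233 CPM in control and 1067, 538, 261 and 239 CPM in PUS10KO (-1.73, SE 0.22), and Lif, which acts through gp130, had -2.03 (SE 0.24). In the list of NF-kB and inflammatory cytokines 3 of 29 genes were lower and 2 higher, so the list did not go one way. The shares over all genes were 2.97% lower and 4.87% higher. Among guidance molecules 6 of 34 were lower, among them Sema7a, Efnb2 (-1.79) and Epha2 (-1.67), and 1 was higher. The fibronectin receptor subunit gene Itga5 had 517, 267, 102 and 75.0 CPM in control and 229, 179.6, 81.4 and 86.4 CPM in PUS10KO (-1.72, SE 0.27). Of 27 integrins and cadherins 3 were lower, and the 2 that were higher were Itgb8 (1.79) and Itgb4 (1.43).

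Genes of ribosome assembly had negative differences throughout, although few of 2-fold. Among all genes 2.97% were counted as lower. Of 27 tested genes of ribosome biogenesis and known MYC targets 6 were counted as lower and none as higher, and all 27 had a negative log2 fold change, from -1.37 to -0.27 with a median of -0.80. Rrp12, an export factor of pre-ribosomes, had 91.9, 106, 45.5 and 40.4 CPM in control and 127, 107, 42.2 and 38.3 CPM in PUS10KO (-1.37, SE 0.11). The nucleolar RNA helicase gene Ddx21 had 425, 595, 245 and 206 CPM in control and 476, 545, 216 and 181 CPM in PUS10KO (-1.27, SE 0.14). The 53 cytosolic ribosomal protein genes lay on the other side, with a median of 0.33 and none counted; Rpl3 had 0.56 (SE 0.14). Without the fold requirement 48 of the 53 were higher in both genotypes without overlap and none was lower, where 5325 of all 11909 genes parted the sets in either direction. Among 36 DNA replication genes the 2 counted as lower were Ccne2, cyclin E2 (-1.12, SE 0.11), and Rrm2, a ribonucleotide reductase subunit (-1.08, SE 0.20, and -0.79 without number 2), and the median was -0.33. Cdkn1b, which encodes the cyclin-dependent kinase inhibitor p27, was higher in numbers 3 and 4, with 46.5, 72.0, 111 and 120.3 CPM in control and 38.0, 52.9, 112 and 119 CPM in PUS10KO (1.15, SE 0.17, and 0.91 without number 1). Its list of senescence genes and CDK inhibitors did not move as a whole. Of 18 tested genes 2 were higher and 1 lower, against 4.87% and 2.97% of all genes, with a median of 0.14.

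Sterol synthesis was the list with the most genes counted as higher. Of 23 tested genes 8 were higher in numbers 3 and 4, against 4.87% of all genes, none was lower, and the median log2 fold change was 0.80 (0.76 in control and 0.83 in PUS10KO). Mvd, the mevalonate decarboxylase (ENSMUSG00000006517.5, minus strand of chromosome 8 from 122433601 to 122443422 in GRCm38), had 23.2, 14.4, 64.4 and 73.4 CPM in control and 11.1, 13.0, 40.4 and 57.7 CPM in PUS10KO (1.95, SE 0.18). Hmgcs1, which makes the precursor of mevalonate, had 247, 134, 409 and 531 CPM in control and 133, 185, 379 and 478 CPM in PUS10KO (1.37, SE 0.21), and Lss, the lanosterol synthase, had 62.5, 36.3, 121 and 137 CPM in control and 32.4, 37.0, 77.0 and 103 CPM in PUS10KO (1.38, SE 0.18). In the control libraries number 1 stood above number 2 for each of these 3 genes, and in PUS10KO it did not. Fdft1, Idi1, Pmvk, Fdps and Insig1 were the other counted genes (1.32, 1.26, 1.08, 1.36 and 1.26). Fdps had 1.98 without number 1 and 0.92 without number 2, and Pmvk had 0.95 without number 4. Without number 1 the median of the list was 1.13.

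A pair of sterol promoters are shown for the letters that sterol regulation is known to use. Hmgcs1 (plus strand, window chr13:119690101-119690350) is printed with the sterol regulatory element letters TCACNCCAC in capitals, and Mvd (minus strand, window chr8:122443423-122443672) with CCAAT, the box bound by NF-Y, on either strand; both are GRCm38.p6 from RefSeq.
Hmgcs1: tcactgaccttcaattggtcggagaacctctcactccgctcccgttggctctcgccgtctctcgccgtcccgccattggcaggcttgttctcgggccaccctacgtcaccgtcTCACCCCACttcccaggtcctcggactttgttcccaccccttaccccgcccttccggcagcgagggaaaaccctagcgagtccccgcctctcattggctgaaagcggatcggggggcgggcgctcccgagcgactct
Mvd: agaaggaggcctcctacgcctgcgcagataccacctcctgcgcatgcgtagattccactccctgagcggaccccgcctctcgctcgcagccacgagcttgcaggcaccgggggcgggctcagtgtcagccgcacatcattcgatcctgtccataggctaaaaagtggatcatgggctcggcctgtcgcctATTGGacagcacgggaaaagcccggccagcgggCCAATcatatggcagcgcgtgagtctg
CCAAT stood on either strand of the 300-base window in 15 of the 16 matched genes of the sterol list (93.75%), in 43.29% of the 432 higher genes, in 37.78% of the 270 lower genes and in 39.49% of the 9579 genes tested. TCACNCCAC stood in 1 of the 16, in 0.93% of the higher genes and in 0.99% of the genes tested.

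Lists of other lipid genes and of clock genes also held members that were higher, where 4.87% of all genes were higher. The median log2 fold change was 0.46 for the lipid list and 0.08 for the clock list, so the clock list as a whole did not move. Of 19 genes of fatty acid synthesis and lipid storage 3 were higher and none lower. Lpin1, a phosphatidate phosphatase, had 3.6, 4.71, 24.1 and 24.2 CPM in control and 6.78, 11.5, 33.3 and 33.0 CPM in PUS10KO (2.18, SE 0.21). Scd2, a fatty acid desaturase, had 604, 675, 1864 and 1715 CPM in control and 331, 477, 1024 and 1133 CPM in PUS10KO (1.45, SE 0.13). Of 17 clock genes the 2 that were higher were Dbp, a clock-controlled transcription factor (5.01, 2.9, 11.3 and 18 CPM in control, 2.37, 1.67, 7.18 and 9.63 CPM in PUS10KO, 1.97, SE 0.25), and Per3 (1.74, SE 0.19). The core clock genes Arntl and Clock had 0.01 and -0.54, Nr1d1 had -1.0 (-0.39 without number 1), and none of them was counted.

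The 15 genes with the largest differences in the upward direction, chosen in the same way, were of mixed function. Scx, the tendon transcription factor scleraxis (ENSMUSG00000034161.8, plus strand of chromosome 15 from 76457452 to 76459458 in GRCm38), had 1.95, 2.02, 10.6 and 14.2 CPM in control and 1.54, 1.47, 10.1 and 18.1 CPM in PUS10KO (2.92, SE 0.25). The scavenger receptor gene Scara5 had 5.79, 10.5, 30.9 and 86.8 CPM in control and 54.2, 90.7, 306 and 572 CPM in PUS10KO (2.72, SE 0.39, and 2.01 without number 4); PUS10KO stood above control at every number, and number 4 stood above number 3 in both genotypes. Lrrc17, a secreted leucine-rich repeat protein, had 17.6, 21.2, 97.6 and 149.5 CPM in control and 23.1, 35.6, 126 and 179 CPM in PUS10KO (2.52, SE 0.21). Il1rn, the interleukin-1 receptor antagonist, had 34, 28.4, 129 and 202 CPM in control and 95.1, 90.5, 392 and 388 CPM in PUS10KO (2.24, SE 0.16), without overlap of the sets in either genotype. Agtr2, the angiotensin II type 2 receptor, had 5.84, 8.67, 75.8 and 81.0 CPM in PUS10KO and at most 0.192 CPM in the control libraries, so its difference rests on PUS10KO (3.42 there). The highest 15 also held Rspo3, an enhancer of Wnt signalling (2.35, and 3.04 without number 2 and 1.81 without number 4), Pde9a, a cyclic GMP phosphodiesterase (3.00), Ppp1r3c, a glycogen-targeting phosphatase subunit (2.53), Plin4, a lipid droplet protein (2.23, and 2.94 without number 1 and 1.64 without number 2), and Gas2, named for its expression in growth arrest (2.20). The others were Cacna1b, a calcium channel subunit (2.39), Serpinb1a, a protease inhibitor (2.32), Tmem178 (2.35, and 1.66 without number 4), Rtl3 (2.26) and Aspn.

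Genes of the extracellular matrix were divided. Of 36 matrix glycoproteins and cross-linkers 4 were higher and 2 lower, against 4.87% and 2.97% of all genes, with a median of 0.11. Aspn, the small proteoglycan asporin, had 41.6, 32.7, 74.4 and 212 CPM in control and 9.69, 22.1, 61.6 and 124 CPM in PUS10KO (2.24, SE 0.42, and 1.5 without number 4). Fbn2, fibrillin-2, Eln, elastin, and Ogn, osteoglycin, had 1.40, 1.34 and 1.30 (Ogn 0.83 without number 4). The matricellular genes Thbs1 and Tnc were the 2 lower ones. Thbs1, thrombospondin-1, had 14736, 7162, 2207 and 2273 CPM in control and 11661, 3887, 2331 and 3541 CPM in PUS10KO (-1.85, SE 0.41, and -1.07 without number 1), and Tnc, tenascin-C, had 2209, 1424, 649 and 714 CPM in control and 907, 689.8, 255 and 229 CPM in PUS10KO (-1.57, SE 0.17). None of 21 collagen genes was counted; the highest were Col8a2 (1.20, and 0.44 without number 4) and Col14a1 (1.05, and 0.50 without number 4) and the lowest Col4a1 (-1.0, and -0.41 without number 1) and Col4a2 (-0.89). Among 17 metalloproteinases and inhibitors the 3 lower genes were Timp1, an inhibitor of metalloproteinases (979, 959, 330.1 and 291 CPM in control, 2217, 1506, 608 and 428 CPM in PUS10KO, -1.74, SE 0.16), and the membrane proteases Adam19 and Adam12 (-1.55 and -1.26, and -0.99 and -0.86 without number 1).

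Secreted Wnt and insulin-like growth factor regulators and p53 targets gave single genes rather than lists. For comparison with the counts below, 4.87% of all genes were higher and 2.97% lower. Of 28 Wnt genes 3 were higher (Rspo3, Sfrp2 with 1.58, or 2.18 without number 1, and Dkk3 with 1.01, or 0.90 without number 1) and 1 lower (Nkd2, an inhibitor of Dishevelled, -2.63, and -1.53 without number 1 and -3.27 without number 2). Igfbp5, an insulin-like growth factor binding protein, had 3.16, 1.26, 4.02 and 6.08 CPM in control and 5.62, 4.02, 21.8 and 33.9 CPM in PUS10KO (1.92, SE 0.39, and 2.53 without number 1). Of 25 p53 targets Sesn1 (1.44), Trp53inp1 (1.42) and Ddit4 (1.03, and 0.53 without number 1 and 1.87 without number 2) were higher and Plk3 (-1.53) lower. Trib3, a pseudokinase induced by ATF4, was the single counted gene of 30 in the list of ATF4 and amino acid response (1.60, SE 0.16). In the list of tRNA modification and pseudouridine synthase genes, the enzymes nearest to PUS10, 1 of 37 was higher (Ang, 1.03, and 0.95 without number 4) and 1 lower (Trmt61a, -1.32), with a median of -0.35. Without the fold requirement 21 of the 37 were lower and 2 higher in both genotypes without overlap, where 5325 of all 11909 genes parted the sets in either direction.

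Some programmes differed between single numbers more than between the sets. The 30 mitosis and spindle genes had a median log2 CPM of 4.80, 7.45, 6.78 and 6.57 in control and 5.67, 7.36, 6.80 and 6.50 in PUS10KO, lowest in number 1 and highest in number 2 in both genotypes. Mki67, the proliferation marker, had 73.9, 355, 265 and 222 CPM in control and 139, 360.1, 275 and 262 CPM in PUS10KO, and Ccnb2, cyclin B2, had 10.9, 97.6, 104 and 98.6 CPM in control and 18.8, 93.8, 103 and 89.2 CPM in PUS10KO. None of the 30 was counted and the median log2 fold change between the sets was 0.04, but it was 1.40 without number 2, which leaves number 1 against numbers 3 and 4. The 35 type I interferon response genes had a median log2 CPM of 3.62, 1.76, 1.95 and 2.51 in control and 5.28, 3.51, 3.92 and 4.49 in PUS10KO, highest in number 1 and lowest in number 2. Usp18, a negative regulator of the interferon receptor, had 20.3, 0.328, 0.464 and 0.958 CPM in control and 83.8, 9.59, 6.54 and 14.3 CPM in PUS10KO. None of the 35 was counted; the median between the sets was -0.49 and became 0.69 without number 1. For the 20 genes of the unfolded protein response, which have to do with protein folding in the endoplasmic reticulum, the median was -0.21 and became 0.18 without number 1.

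**Figure D4:**
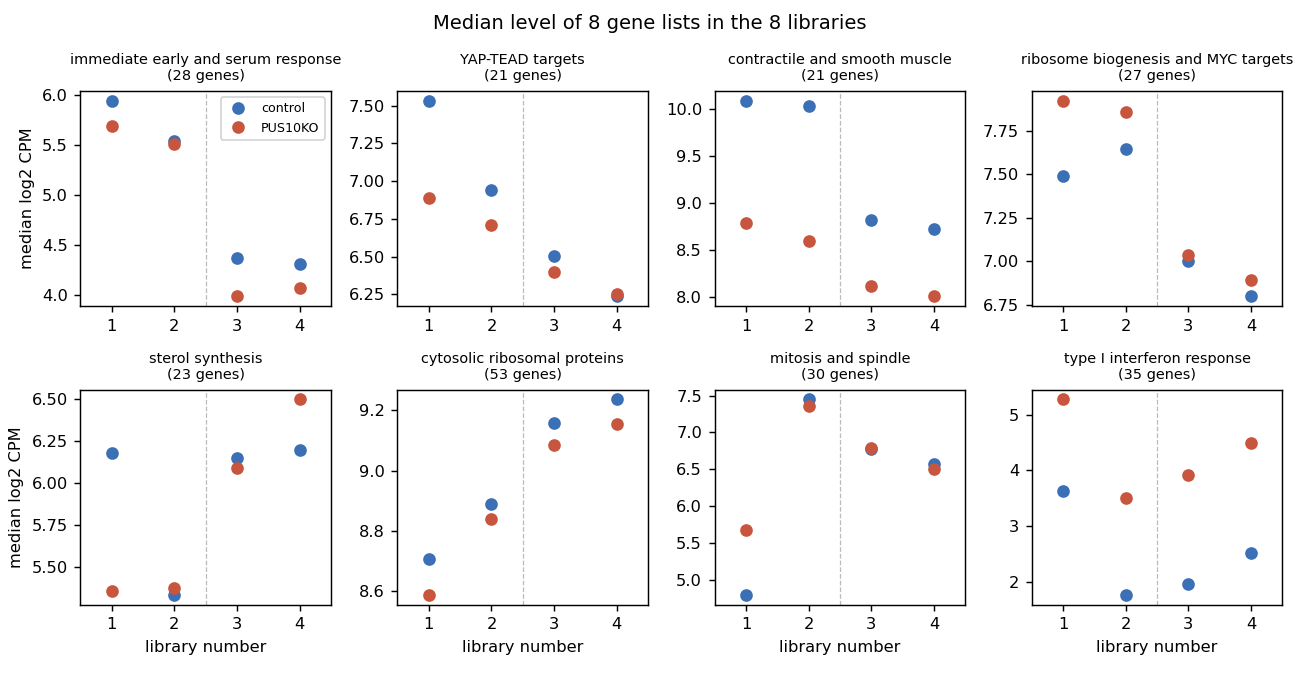
Median log2 CPM (vertical) of the tested members of 8 gene lists by library number (horizontal), control in blue and PUS10KO in red, each panel with its own vertical range and a dashed line between the sets. The immediate early, YAP and TEAD, contractile and ribosome biogenesis lists are higher in numbers 1 and 2, the ribosomal protein list is higher in numbers 3 and 4, control 1 stands among numbers 3 and 4 in the sterol list, and the mitosis and interferon lists part number 1 from number 2.

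No other list had more than 5 counted genes, where 4.87% of all genes were higher and 2.97% lower. None was counted among 23 lysosomal genes (median 0.30), 40 nuclear oxidative phosphorylation genes (0.19), 7 mitochondrially encoded genes (-0.06), 19 heat shock genes (-0.45) and 30 genes of retrotransposon silencing (-0.19). Without the fold requirement 10 heat shock genes were lower in both genotypes without overlap and none higher. By that measure 8 lysosomal genes were higher and none lower, and 20 oxidative phosphorylation genes were higher and 1 lower. Of all 11909 genes 5325 parted the sets so, in either direction. A single gene in each direction was counted among 28 genes of hypoxia and glycolysis, where Hk2, hexokinase 2, had -1.30 and Ndrg1 had 1.53, and among 26 genes of oxidative stress and metal response, where Txnrd1, thioredoxin reductase, had -1.23 and the metallothionein gene Mt1 had 1.13 (0.91 without number 4).

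Whether the set difference depended on genotype was tested for every gene. In edgeR's quasi-likelihood test no gene passed an adjusted p of 0.05 for the product of number set and genotype (646 genes, or 5.42%, had an unadjusted p under 0.05), limma voom called 0 and DESeq2 57 (41 with PUS10KO above control, 16 below). Same-numbered libraries were treated as pairs on the evidence of the counts, not of the labels, and with the number as a block in edgeR 255 genes passed (2.14%). For 197 of them (1.65%) the PUS10KO difference lay above that of control, and for 58 (0.487%) below. On the authors' normalized values with the same block limma called 190 genes, of which 155 were among the 255, all with the same sign. The block leaves 2 residual degrees of freedom, and all the interaction values below are from that fit unless another is named. Without the block no gene passed in edgeR, so none of the genes below did.

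Contractile genes held the highest number of these of all lists examined. Of 21 tested genes 9 passed with the block, all 9 with the PUS10KO difference above that of control, and 9 had an unadjusted p under 0.05 without the block. Acta2, smooth muscle actin, had 14070.4, 14958, 6166 and 4904 CPM in control and 2466, 2238, 2212 and 2077 CPM in PUS10KO. In control the sets were thus apart and numbers 1 and 2 were the higher, whereas the 4 PUS10KO libraries lay close together below every control library. Its log2 fold change was -1.39 in control and -0.13 in PUS10KO, a difference of 1.27 (SE 0.15, adjusted p = 0.000522 in edgeR with the block, 0.457 without). Tagln, transgelin, had 5198, 4618, 1984 and 1672 CPM in control and 1035, 827, 617 and 453 CPM in PUS10KO (difference 0.62, adjusted p = 0.0431 in edgeR with the block). Lmod1, leiomodin, had 186, 95.8, 42.3 and 41.0 CPM in control and 28.3, 21.8, 20.6 and 18.1 CPM in PUS10KO (difference 1.32, adjusted p = 0.00555 in edgeR with the block, 0.702 without). For both genes too every PUS10KO library lay below every control library.

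Actg2 and Cnn1 lay on the other side of control. Actg2, the enteric smooth muscle actin, had 167, 184, 40.5 and 22.5 CPM in control and 343, 281, 239 and 194 CPM in PUS10KO (-2.48 and -0.53, difference 2.00, SE 0.21, adjusted p = 0.000503 in edgeR with the block, 0.457 without). Cnn1, calponin, had 22.1, 32.2, 6.75 and 4.02 CPM in control and 40.6, 60.9, 46.0 and 32.1 CPM in PUS10KO (difference 1.98, SE 0.20, adjusted p = 0.000211 in edgeR with the block). For both, PUS10KO stood above control at each number, and the wider gap was in numbers 3 and 4. Acta1, the skeletal actin, was lower in PUS10KO at every number, with 151, 43.5, 17.9 and 8.62 CPM in control and 2.37, 0.636, 1.44 and 1.14 CPM in PUS10KO (difference 2.67, adjusted p = 0.000883 in edgeR with the block, 0.929 without). The actin genes are close in sequence, and how reads that fit several of them were counted is not stated, so their levels are uncertain. Across the 21 genes the median log2 fold change was -1.02 in control and -0.38 in PUS10KO.

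**Figure D5:**
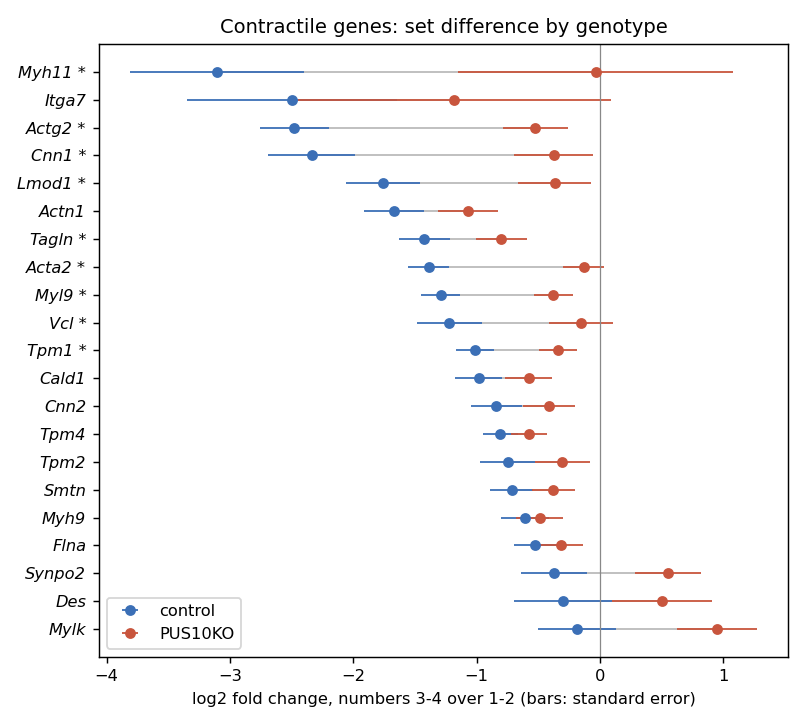
Log2 fold change of numbers 3 and 4 over numbers 1 and 2 (horizontal, bars are the standard error of the fit) for the 21 tested contractile genes, control in blue and PUS10KO in red; a star marks the 9 genes past an adjusted p of 0.05 for the difference between genotypes in edgeR with the number as a block. Acta2 lies at -1.39 in control and -0.13 in PUS10KO.

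Among the other lists the genotype dependence was in few genes. With the block 5 of 21 YAP and TEAD genes passed, all with the PUS10KO difference above. Among them were Ccn1 (-2.87 in control, -2.05 in PUS10KO, adjusted p = 0.0101 in edgeR with the block, 0.999 without) and Crim1, a regulator of BMP (-2.12 and -1.21, adjusted p = 0.0147 in edgeR with the block, 0.968 without). Of 34 guidance genes 6 passed and of 28 immediate early genes 3, all in that direction too. In the sterol, ribosome biogenesis, ribosomal protein, mitosis and interferon lists none of 23, 27, 53, 30 and 35 genes passed with the block. Heat shock gave 3 of 19, among them Hspb1, a small heat shock protein (-1.45 in control, -0.30 in PUS10KO, adjusted p = 0.00748 in edgeR with the block, 0.580 without). In the opposite direction stood Txnrd1, with 514, 605, 337 and 317 CPM in control and 831, 665, 235 and 227 CPM in PUS10KO (-0.77 and -1.70, adjusted p = 0.0216 in edgeR with the block), 3 of 25 growth factor genes and 3 of 19 class I presentation genes.

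A few genes outside the naming rule, chosen after their values were seen, show the range of these patterns. Tgfb3, a TGF-beta ligand, had 1147, 509, 152 and 159.8 CPM in control and 121, 62.9, 87.6 and 99.3 CPM in PUS10KO, a difference of 2.39 (SE 0.16, adjusted p = 1.07e-05 in edgeR with the block). Gpc1, the heparan sulfate proteoglycan glypican-1, had 66.8, 59.1, 60.8 and 50.9 CPM in control, where the sets were alike, and 151, 124, 39.9 and 29.1 CPM in PUS10KO, where they were apart (difference -1.83, SE 0.18, adjusted p = 0.000149 in edgeR with the block). Il1rl1, the receptor of interleukin-33, had 22.6, 22.6, 33.3 and 26.8 CPM in control and 179, 148, 98.8 and 56.3 CPM in PUS10KO (difference -1.52, SE 0.20, adjusted p = 0.00152). Kcnj2, an inward rectifier potassium channel, was higher in numbers 3 and 4 in both genotypes, by 2.96 in control and 0.92 in PUS10KO on the log2 scale (adjusted p of the difference = 0.000441 in edgeR with the block).

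Markers of other cell types were mostly low or not in the table, and their part in the differences was not tested. Beside the counts given here, 4.87% of all genes were higher and 2.97% lower. The summed CPM of the 10 tested of 26 chondrogenic and osteogenic markers was 42.0 to 89.6 in numbers 1 and 2 and 58.3 to 73.7 in numbers 3 and 4, and 2 genes were higher, Scx and Col9a3 (1.11, and 0.91 without number 4). For 8 of 20 endothelial and mural markers the sums were 78.4 to 466 and 72.7 to 234, with Tek and Notch3 higher and Flt1 lower. For 8 of 22 epithelial markers they were 27.3 to 233 and 48.9 to 96.7, and for 7 of 23 neural and glial markers 175 to 390 and 146 to 308, with 1 gene higher in each (Trp63, 1.70, and Map2, 1.89). For 4 of 23 muscle markers the sums were 5.37 to 160 and 4.49 to 25.7, where the highest value is control 1 and comes mostly from Acta1, and 1 gene was lower (Tnnt2, -1.89). For 4 of 21 macrophage and blood markers they were 7.55 to 20.2 and 8.24 to 15.2, and 1 gene was lower (Csf1r, -1.90, and -0.83 without number 1). Over both genotypes together the ranges of the sets overlapped for each of these lists, and for the 13 fibroblast markers (11128 to 21685 and 14316 to 20264). Within each genotype the endothelial and mural sums parted the sets and were lower in numbers 3 and 4, with 400.1, 466, 234 and 172 in control and 90.5, 78.4, 72.7 and 73.5 in PUS10KO. The neural and glial sums did so too, with 389.7, 363, 279.6 and 308 in control and 175, 176, 146 and 157 in PUS10KO. A sum is weighted to its most abundant members, and the medians did not fall in this way. The neural and glial median log2 CPM was 3.55, 4.86, 4.99 and 5.56 in control and 1.54, 2.35, 3.93 and 4.28 in PUS10KO. The endothelial and mural one was 2.18, 2.09, 2.27 and 3.06, and 2.05, 2.44, 2.99 and 2.60. Without overlap in both genotypes, 2 neural and glial genes were higher and 2 lower, and 3 endothelial and mural genes higher and 2 lower. By that measure 5325 of all 11909 genes parted the sets in either direction, so these counts do not set the lists apart.

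The counted genes were spread over expression levels and gene lengths unequally. In the fifth of genes with the lowest mean log2 CPM 14.9% were counted as higher and 4.21% as lower, and in the fifth with the highest 0.842% and 3.16%. The median log2 fold change was 0.33 in the former and -0.14 in the latter, and it went from 0.13 in the fifth with the shortest transcripts to -0.08 in the longest, and from -0.07 in the fifth with the lowest GC content to 0.06 in the highest. In the normalized table that the authors deposited the sets did not differ for any gene when both genotypes were averaged (largest difference 5e-09 over 12211 genes). Between any pair of the 4 numbers, averaged in the same way, the largest difference was 7e-09. That table thus holds no difference between numbers shared by both genotypes, and the values above are from the counts.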

How the data were processed

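The 4 control and 4 PUS10KO libraries of embryonic fibroblasts were prepared from total RNA with a stranded kit and read in paired-end mode, per the labels' protocols. The deposited gene counts are whole numbers without normalization by the authors. STAR 2.7.8a, DESeq2 and the mm10 build are named per the submitters' processing notes; which program counted the reads, with which strand setting and annotation, was not given in the sources used here; overlapping genes cannot be told apart by these counts. A second deposited table holds normalized values from 5.13 to 18.12, taken here as log2, although no source states the scale.

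The split of the libraries, the genes described and the 47 gene lists were chosen with earlier results of these data known. The analysis used R 4.3.3, edgeR 4.0.16 (filterByExpr, TMM, robust quasi-likelihood fit), limma 3.58.1 and DESeq2 1.42.0. The set difference was fitted over all 8 libraries with genotype as a covariate, and the standard error (SE) treats libraries of one number as independent, although the correlation within a number was 0.298; a set holds 2 numbers. Log2 CPM used a prior count of 2. The product of number set and genotype was tested with edgeR's quasi-likelihood test, two-sided, with Benjamini-Hochberg adjustment over 11909 genes. Nothing in the labels says that libraries came from separate cultures, so p-values describe the spread of these samples alone, possibly technical. Scripts were tested on simulated data.

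Same-numbered libraries deviated together from their genotype means (r across genes 0.681, 0.722, 0.633 and 0.687 for numbers 1 to 4). The pairing comes from these values. The highest r between unlike numbers was 0.303, 0.0416, 0.582 and 0.503 in the same order, so the margin was narrowest for number 3. Such deviations still hold the set difference, which numbers of one set have in common. Within a set the differences between numbers correlated between genotypes too (0.632 for numbers 1 and 2), though less so for 3 and 4 (0.335). The fit with the number as a fixed block is given beside some of the results it changes, not beside each of them.

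Named genes were the 15 highest and 15 lowest counted genes whose mean log2 CPM reached 2, up to 4 counted members of each list by size of change (the 2 with the largest change where fewer than 2 were counted), the 10 largest interactions each way among genes that passed (none did), and Pus10, without predicted genes. Other list members named in the text, and Eif2s3y, were chosen after their values were seen. The list of structured and long noncoding RNAs had 0 members in the table. Symbols on 2 rows were left out of lists. Promoter sequences are RefSeq's (GRCm38.p6) and gene positions GENCODE's (GRCm38). Alternatives were another scaling, no filter on low counts, other fold thresholds, other tools and leaving out libraries. Some genes that the naming rule picks are not reported here.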

Additional observations from a re-analysis of the deposited data

Results flagged for a closer look

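In 13 of 378 groups of 4 libraries examined (named genes and list medians within a genotype), the highest or lowest library stood apart from the other 3 by more than 0.829 of the group's range. Chance flags about 1 in 20 groups, so flags were no more frequent than chance alone would give. The groups are not independent of each other, and the flagged ones are listed as a description. Mitotic genes gave 4 of the 13, all with number 1 low. Ccnb2, cyclin B2, had a log2 CPM of 3.453 in control 1, where the nearest other control library had 6.611, and 4.239 in PUS10KO 1, where the nearest had 6.48. Nusap1, a spindle protein, had 3.829 in control 1 (nearest 6.468) and 4.757 in PUS10KO 1 (nearest 6.928).

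The median log2 CPM of the sterol synthesis genes was 5.333 in control 2 against 6.148 in the nearest control library, so control 1 lay with numbers 3 and 4. That of the unfolded protein response genes was 8.171 in control 1 (nearest 7.431), that of the matrix glycoproteins and cross-linkers 7.855 in control 1 (nearest 7.683) and that of the clock genes 3.878 in control 1 (nearest 3.588). The class I presentation genes had 3.045 in control 2 (nearest 3.952), the collagens 6.924 in PUS10KO 2 (nearest 7.388), and the developmental transcription factors and Hox genes 3.487 in PUS10KO 1 (nearest 3.872). Of single genes, Lyz2, lysozyme, had 2.201 in control 4 (nearest 1.356), and Pkp1, a desmosome protein, had 1.512 in PUS10KO 1 (nearest -1.673).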

How the results depend on the processing

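With DESeq2 size factors, without a filter on low counts, in DESeq2, and in limma voom with or without the number as a random block, all 142 named genes and the medians of all 46 lists with tested members stayed within their spread. Direction was checked for the counted genes alone, and all of those kept it. At a fold of at least 4 the counted genes were 49 higher and 57 lower, and at a fold of at least 1.5 they were 1420 and 1088. Without 1 library the higher genes numbered 579 to 719 and the lower 316 to 467, and without 1 number in both genotypes 520 to 828 and 298 to 606 (the last without number 2). Within control the higher genes numbered 631 to 1086 (the last without control 2) and the lower 423 to 793, and within PUS10KO 723 to 1008 and 336 to 656 (the last without PUS10KO 2). With libraries left out the no-overlap rule compares fewer of them and is easier to meet. Leaving out number 1 moved 33 named genes and 8 lists by more than their spread, number 2 moved 13 and 4, number 3 moved 3 and 0, and number 4 moved 12 and 0. Control alone gave 543 lower genes. No called value changed sign.

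For the product of number set and genotype, edgeR called 0 genes without a block, 255 with the number as a replicate block and 190 by limma on the authors' normalized values with the block. DESeq2 called 57, limma voom 0, and edgeR 0 to 7 without 1 library (7 without control 2). Each of those leaves a genotype and set with a lone library, assumed to vary like the others. The cause of the gap between fits was not tested; the block removes what same-numbered libraries share from the error. Depth (17561114 to 24563499 counts) limits genes of a few CPM, such as Areg and Eln.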
